A study of Mus musculus with 31 samples.

Results

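Mouse embryonic stem (ES) cells sorted for an Oct4-GFP reporter were compared with every other group of a differentiation series. The comparison used 6 arrays of sorted cells of 31 arrays in all, and a probe set was taken as apart in the sorted cells when its mean log2 signal was at least 1 (2-fold) from that of each of the 4 other groups in the same direction. Of 12422 probe sets, 59 were apart, 25 higher (0.201%) and 34 lower (0.274%). They carry 50 gene symbols, with 51 probe sets assigned to 1 symbol, 4 to several and 4 to none.

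All samples came from B6 mouse ES cells kept on mouse embryonic feeder cells (MEFs) in serum with LIF, with no treatment other than the ones named here. The sorted group (day 0, 6 arrays) was purified by FACS on the GFP reporter. The gelatin group (day 0, 6 arrays) was depleted of MEFs and grown on gelatin-coated dishes. The embryoid body (EB) groups were seeded from ES cells on gelatin in nonadherent dishes without LIF and collected at day 4 (7 arrays), day 8 (6 arrays) and day 14 (6 arrays). Biotin-labelled RNA, amplified linearly in 2 rounds, was hybridised to Affymetrix MgU74Av2 arrays, and the values are dChip signal on a linear scale. The labels name 1 strain background, do not describe the reporter construct and do not say which dish the sorted cells were taken from. The study calls the samples of a time point biological samples in its methods and biological replicates in its results. It does not say whether these were separate cultures, so errors and p-values measure the spread between arrays. The methods do not list the last day that the labels give. They state an equal number of samples at each time point, while the study's results give an average number. The labels were followed for both. Differences below are the mean log2 signal of sorted arrays minus that of the other group, so that they can differ from the log2 ratio of mean signals where arrays of a group are spread, with low values raised to 59.6 (the 5th percentile of all values).

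Oct4, encoded by Pou5f1, is a transcription factor at the centre of the network that keeps ES cells pluripotent, and an Oct4 reporter is used to separate ES cells from cells that have begun to differentiate. LIF acts through the receptor subunits Lifr and Il6st to Stat3 and sustains a naive state marked by Zfp42, Klf2, Klf4 and Dppa3. Withdrawal of LIF in suspension lets EBs form, in which endoderm, mesoderm and neural lineages arise.

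The sorted arrays carried the markers of the labelled cell type. The summed signal of 10 ES cell markers was 61730 to 72650 in sorted arrays, above all others. It was 35420 to 42200 on gelatin and 36390 to 59520 in EBs at day 4. At day 8 it was 25550 to 55060 and at day 14 11940 to 26030. The markers include Zfp42 and Fbxo15, so this sum partly rests on values that the 2-fold rule used. Against gelatin, 7 of the 10 were higher in sorted cells, against day 4, 2, against day 8, 7 and against day 14, 10. None was lower. Of all genes, 18.4%, 14.1%, 19.4% and 24.4% were higher in that order of comparisons. Pou5f1 itself had signals of 5491 to 6899 (median 6570) in the sorted arrays, against 3908 to 5253 (median 4921) on gelatin, 2407 to 6651 (median 5688) in EBs at day 4, 949 to 2747 (median 1613) at day 8 and 691 to 1485 (median 969) at day 14. The sorted arrays lay above all gelatin arrays and overlapped with those of day 4. Its difference against gelatin, 0.45 ± 0.26 (SE; limma adjusted p = 0.182), and against day 4, 0.47 ± 0.25 (adjusted p = 0.19), did not pass the test, while those against day 8 (2.04 ± 0.26, adjusted p = 8.92e-07) and day 14 (2.64 ± 0.26, adjusted p = 3.75e-09) did. Of the 14 feeder fibroblast markers listed, 13 were measured, and their summed signal was 10620 to 15080 in sorted arrays, against 21280 to 37260 on gelatin, 6738 to 11720 at day 4, 7353 to 18410 at day 8 and 24780 to 40190 at day 14. None of the 13 was at or under 59.6 in all sorted arrays. In sorted cells, 1 of these markers was higher and 6 were lower against gelatin, 6 higher and none lower against day 4, 5 and 4 against day 8 and 5 and 7 against day 14. In bulk RNA, fewer cells of a type and less RNA per cell cannot be told apart.

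The ratio of 3′ to 5′ Gapdh signal, a measure of RNA length after amplification, was 2.76 to 3.09 in sorted arrays, against 3.48 to 6.85 on gelatin, 2.24 to 4.40 at day 4, 2.11 to 2.61 at day 8 and 2.06 to 2.68 at day 14. The part of this ratio in the differences was not tested. With the 3 gelatin arrays of the highest ratio left out, 25 probe sets were apart higher and 35 lower. Sorted arrays correlated at 0.980 to 0.997 with each other on the log2 scale, day 4 arrays at 0.947 to 0.993 and day 8 arrays at 0.972 to 0.996. The EB day 8 arrays were split for several members, with arrays 1, 3 and 5 on one side and 2, 4 and 6 on the other, as given below for Zfp42. With the day 8 group left out of the rule, 32 probe sets were apart higher and 51 lower. No scan or hybridisation batch is stated in the sources used here, so a batch that coincides with the sort cannot be told apart from it.

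The same rule gave other totals for other groups. It found 114 probe sets higher and 12 lower on gelatin than in every other group, none higher and 4 lower at day 4, none higher and 8 lower at day 8, and 112 higher and 24 lower at day 14. Of the 3 groups with any higher ones, the sorted cells alone had more lower than higher. The smallest of the 4 differences had a median of 1.37 among the 25 higher probe sets and a highest value of 2.83, which belonged to Xlr4a. All 6 sorted arrays lay above all 25 other arrays for 22 of the 25, a pattern that 107 probe sets of all tested showed (0.861%). All 6 lay below all others for 22 of the 34 lower members, against 177 of all tested (1.42%). Because the 2-fold rule chose the members, these counts describe them and test nothing.

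**Figure D1:**
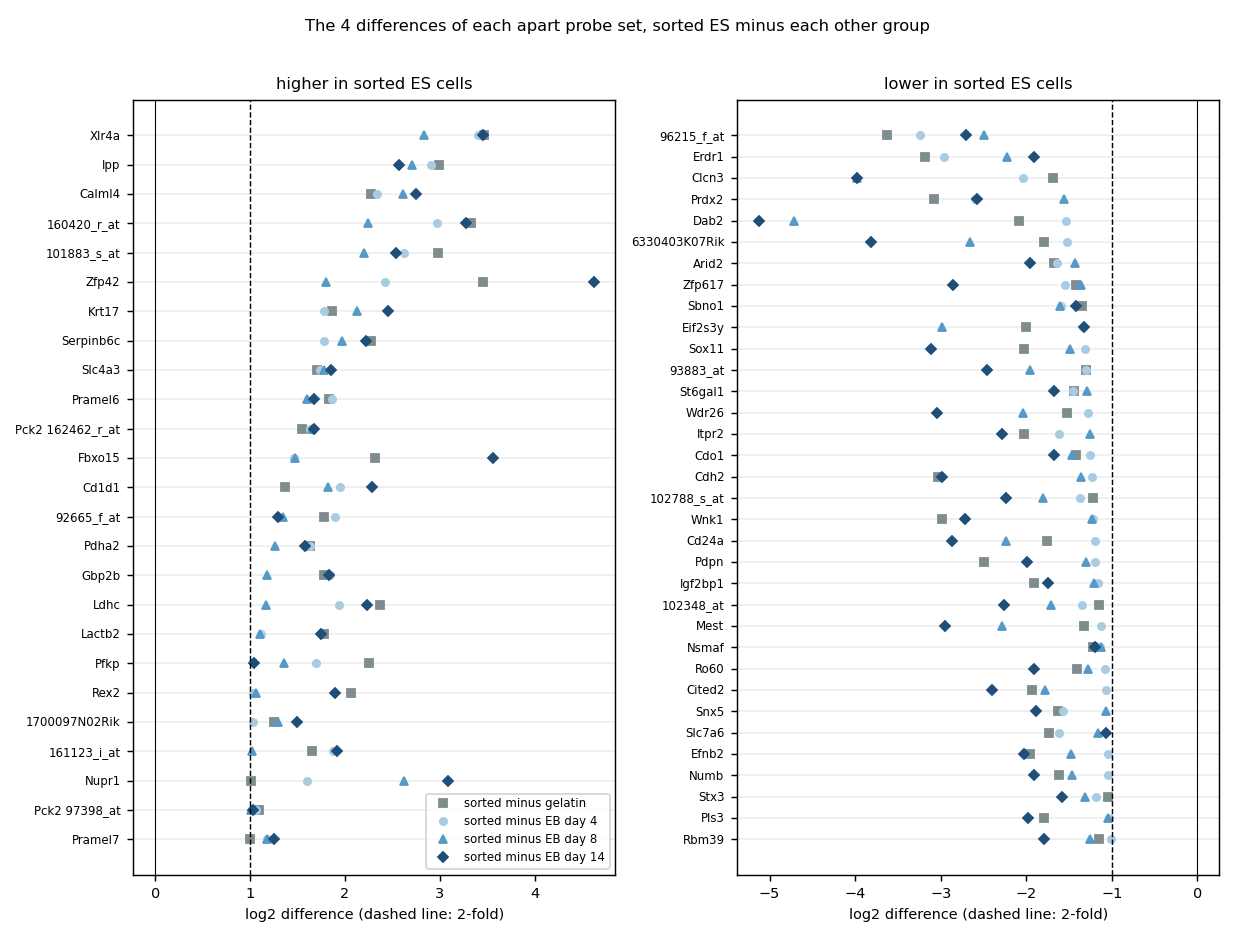
Mean log2 signal of sorted ES cells minus that of each other group (x axis) for the 25 higher and 34 lower probe sets (rows, ordered by the smallest difference; probe set IDs stand where no single symbol is assigned). Xlr4a, Ipp and Calml4 lie beyond 2 in all 4 comparisons, whereas Zfp42 and Dab2 spread widely between comparisons.

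Promoter windows of 300 bases (250 before to 50 after the annotated start) were read from RefSeq on GRCm38.p6 for 16 of the 20 higher genes and 23 of the 30 lower genes. The CpG dinucleotide, the site of DNA methylation in mammals, occurred a median of 8 times per window in the higher genes and 23 times in the lower genes, against 19 times over the 6576 of 8251 array genes with a window (windows of a gene averaged). Fewer than 10 CpG were found in 10 of the 16 higher genes (62.5%) and in 6 of the 23 lower genes (26.1%), against 25.1% of array genes. At least 20 were found in 3 higher genes (18.8%) and 14 lower genes (60.9%), against 47.6% of array genes. The count is a description of the sequences and was not tested, and neither set is uniform. The 2 sets also differed in brightness. Ranked by mean signal, the median probe set was at percentile 35.9 among higher members and 73.5 among lower, against 50 for all. The part of brightness in the CpG counts was not tested. Among the higher genes, Ipp and Pfkp had 21 CpG and Slc4a3 28, while Gbp2b and Pramel7 had 1. Among the lower genes, Snx5 had 44, and 6330403K07Rik and Pls3 had 5.

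**Figure D2:**
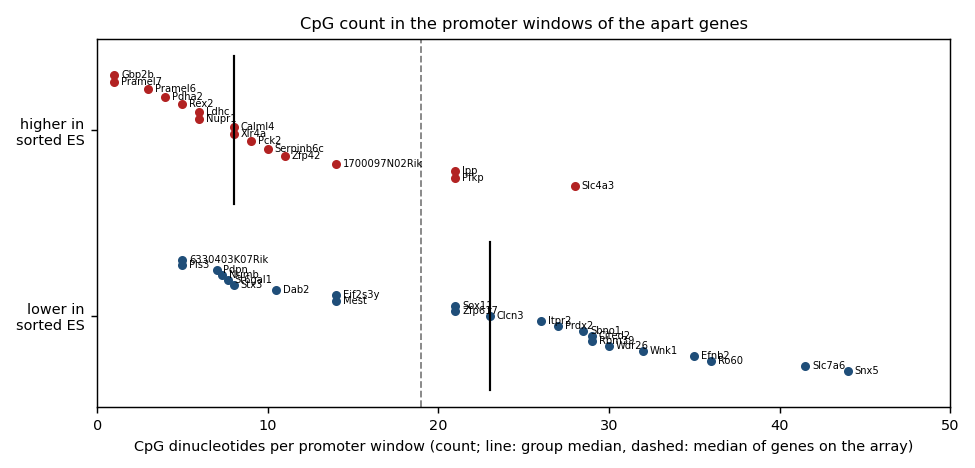
CpG count per 300-base promoter window (x axis) for each apart gene with a RefSeq window, higher genes above and lower genes beneath (points, spread vertically for legibility), with the median of each set as a black line and that of the array genes as a dashed line. The higher genes centre on 8 and the lower genes on 23, on either side of the dashed line at 19.

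The windows shown are those of the 3 higher and 3 lower genes with the largest smallest-difference among genes with 1 window, with each CpG in capitals, so that the contrast and its exceptions can be read from the letters. This choice was made after the CpG counts were known. Xlr4a (chrX:73082458-73082757, minus strand) and Calml4 (chr9:62857854-62858153, plus strand) hold 8 CpG each and Ipp (chr4:116507299-116507598, plus strand) holds 21. Prdx2 (chr8:84969372-84969671, plus strand) holds 27, Zfp617 (chr8:71922575-71922874, plus strand) 21 and 6330403K07Rik (chr11:71033568-71033867, minus strand) 5.
Xlr4a: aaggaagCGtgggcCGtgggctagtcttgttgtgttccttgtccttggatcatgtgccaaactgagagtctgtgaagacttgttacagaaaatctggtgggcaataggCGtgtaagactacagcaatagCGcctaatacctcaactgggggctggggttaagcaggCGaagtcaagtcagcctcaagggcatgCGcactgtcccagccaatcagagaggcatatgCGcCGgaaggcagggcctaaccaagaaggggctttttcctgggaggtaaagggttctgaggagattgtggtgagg
Ipp: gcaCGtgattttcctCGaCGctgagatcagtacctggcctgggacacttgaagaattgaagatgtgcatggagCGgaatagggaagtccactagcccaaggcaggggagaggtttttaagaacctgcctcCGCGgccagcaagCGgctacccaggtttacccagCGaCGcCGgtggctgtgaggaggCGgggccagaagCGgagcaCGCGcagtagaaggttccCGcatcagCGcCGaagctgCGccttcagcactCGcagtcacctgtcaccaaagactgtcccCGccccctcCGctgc
Calml4: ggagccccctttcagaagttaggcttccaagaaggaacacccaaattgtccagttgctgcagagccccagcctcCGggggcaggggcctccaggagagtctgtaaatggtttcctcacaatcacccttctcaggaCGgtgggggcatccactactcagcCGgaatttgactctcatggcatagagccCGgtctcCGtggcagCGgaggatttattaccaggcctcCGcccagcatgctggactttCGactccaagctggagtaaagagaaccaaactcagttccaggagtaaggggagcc
Prdx2: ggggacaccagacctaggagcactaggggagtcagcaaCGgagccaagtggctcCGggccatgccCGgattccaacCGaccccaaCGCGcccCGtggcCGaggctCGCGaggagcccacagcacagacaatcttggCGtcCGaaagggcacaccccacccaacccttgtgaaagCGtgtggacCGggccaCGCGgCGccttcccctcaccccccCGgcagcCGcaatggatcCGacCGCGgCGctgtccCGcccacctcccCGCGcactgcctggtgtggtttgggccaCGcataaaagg
6330403K07Rik: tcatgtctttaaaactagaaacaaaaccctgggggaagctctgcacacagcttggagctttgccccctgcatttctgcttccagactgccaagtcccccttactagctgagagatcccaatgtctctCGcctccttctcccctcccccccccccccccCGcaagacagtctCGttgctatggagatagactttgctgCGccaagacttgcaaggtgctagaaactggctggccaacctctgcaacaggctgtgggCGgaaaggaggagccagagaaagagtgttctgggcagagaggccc
Zfp617: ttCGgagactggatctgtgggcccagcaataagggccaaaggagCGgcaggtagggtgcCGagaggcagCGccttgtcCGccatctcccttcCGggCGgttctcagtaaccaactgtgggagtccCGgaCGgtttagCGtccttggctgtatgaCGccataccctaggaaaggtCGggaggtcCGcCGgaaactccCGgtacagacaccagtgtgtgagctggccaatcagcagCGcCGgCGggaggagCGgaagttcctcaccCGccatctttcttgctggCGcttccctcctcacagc

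For Zfp42 (chr8:43306960-43307259, minus strand) the capitals mark the octamer ATTTGCAT, the sequence that Oct4 and related factors bind. It was searched on both strands and starts 186 bases before the annotated start. The octamer occurred in 1 of the 16 higher genes (6.25%) and in none of the 23 lower genes, against 1.78% of array genes, and a match is a description only.
Zfp42: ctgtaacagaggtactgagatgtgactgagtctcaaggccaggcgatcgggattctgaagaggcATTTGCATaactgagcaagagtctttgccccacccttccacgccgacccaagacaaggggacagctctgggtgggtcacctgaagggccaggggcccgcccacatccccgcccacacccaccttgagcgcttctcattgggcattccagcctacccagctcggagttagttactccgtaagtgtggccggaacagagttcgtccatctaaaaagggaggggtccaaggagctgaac

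Of the higher members, Zfp42 was on the list of naive state genes and Fbxo15 on that and the core pluripotency list. Zfp42 (Rex1), a zinc finger protein used as a marker of naive ES cells, had signals of 5058 to 9032 (median 8115) in the sorted arrays, against 549.5 to 844 (median 664) on gelatin, 572 to 2426 (median 1805) in EBs at day 4, 635 to 7451 (median 3277) at day 8 and 224 to 626 (median 262) at day 14. At day 8, arrays 1, 3 and 5 had 5825, 6845 and 7451 and reached the sorted range, while arrays 2, 4 and 6 had 716, 635 and 729.6, near the gelatin level. The differences were 3.46 ± 0.52, 2.42 ± 0.50, 1.80 ± 0.52 and 4.62 ± 0.52 (SE) against gelatin, day 4, day 8 and day 14.

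Fbxo15, an F-box gene expressed in undifferentiated ES cells, had signals of 6336 to 8268 (median 7806) in the sorted arrays, against 1353 to 1692 (median 1513) on gelatin, 1827 to 3680 (median 2654) in EBs at day 4, 1431 to 5212 (median 2806) at day 8 and 377 to 1375 (median 599.8) at day 14. No other array reached the sorted range, and the smallest difference was 1.46, against day 4. Pramel6, of a gene family active in the early embryo and germ line and on neither list, measured 306 to 412 (median 333) in the sorted arrays, against 89 to 108 (median 94.5) on gelatin, 85.2 to 108 (median 91.5) in EBs at day 4, 108 to 119 (median 112) at day 8 and 91.5 to 114 (median 109) at day 14. Its other 4 groups lay within a log2 range of 0.26 of each other. Pramel7, of the same family, was the member closest to the 2-fold limit, with medians of 371 in sorted cells against 183 on gelatin and 155, 158 and 151 in EBs at days 4, 8 and 14 and a smallest difference of 1.00. Neither gene overlapped between the sorted and other arrays.

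Xlr4a lies on the X chromosome and belongs to the Xlr gene family. Its signal was 352 to 1097 (median 830.1) in the sorted arrays, against 60.1 to 73.8 (median 64.1) on gelatin, 55.8 to 85.1 (median 70.5) in EBs at day 4, 63.8 to 149 (median 107) at day 8 and 50.4 to 87.2 (median 56.5) at day 14, with the gelatin, day 4 and day 14 arrays near the floor. In 2 of the other groups at least 1 array was at or under 59.6, so the size of the difference depends on that floor. The probe set 101883_s_at, which is assigned to 3 symbols and is not named, measured 724 to 2163 (median 2004) in the sorted arrays and had a smallest difference of 2.21.

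Ldhc and Pdha2 encode the testis forms of lactate dehydrogenase and of the pyruvate dehydrogenase E1 alpha subunit. Ldhc had signals of 389.8 to 503 (median 427) in the sorted arrays, against 79.5 to 93.1 (median 81.4) on gelatin, 93.8 to 135 (median 109) in EBs at day 4, 129.7 to 302 (median 193) at day 8 and 84.5 to 112 (median 88.8) at day 14. All sorted arrays exceeded all others, and day 8 was the nearest group, with a difference of 1.17. Pdha2 was dimmer, with medians of 211 in sorted cells against 64.9 on gelatin and 66, 87.1 and 67.2 in EBs at days 4, 8 and 14 and a smallest difference of 1.26. Its levels outside the sorted cells were close to the floor.

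Pck2, the mitochondrial phosphoenolpyruvate carboxykinase, was the gene with 2 member probe sets. The brighter, 97398_at, had signals of 1982 to 2291 (median 2136) in the sorted arrays, against 936 to 1059 (median 1004) on gelatin, 926 to 1124 (median 1022) in EBs at day 4, 891 to 1145 (median 1093) at day 8 and 949.5 to 1175 (median 1005) at day 14, and its other 4 groups were within 0.09 of each other on the log2 scale. The differences were 1.10 ± 0.06, 1.06 ± 0.06, 1.01 ± 0.06 and 1.03 ± 0.06 (SE). The other, 162462_r_at, had medians of 1230 in sorted cells against 408 on gelatin and 359.5, 384 and 367 in EBs at days 4, 8 and 14. In both probe sets the other groups lay close together and the sorted arrays above them.

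Pfkp, the platelet form of the glycolytic enzyme phosphofructokinase, had signals of 1770 to 2777 (median 2457) in the sorted arrays, against 356 to 783 (median 456) on gelatin, 588 to 1039 (median 683) in EBs at day 4, 601 to 1128 (median 979) at day 8 and 1012 to 1360 (median 1139) at day 14 with the member probe set 97833_at. In this probe set the medians of the other groups increased in that order and the sorted arrays stayed above them all. The brighter 97834_g_at had 1982 to 2609 (median 2342) in the sorted arrays and 1129 to 2304 (median 1702) at day 8, and did not pass against day 8 (0.45, adjusted p = 0.107). Lactb2, a mitochondrial endoribonuclease, had medians of 730.4 in sorted cells against 215 on gelatin and 322, 336 and 211 in EBs at days 4, 8 and 14. Slc4a3, an anion exchanger, measured 1206 to 1788 (median 1529) in the sorted arrays, against 410.5 to 491 (median 471) on gelatin, 397 to 575 (median 436) in EBs at day 4, 417 to 473 (median 432) at day 8 and 395 to 439.6 (median 414) at day 14, and its 4 other groups differed by no more than 0.15 on the log2 scale.

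Ipp, a kelch-domain gene first found through a transcript driven by an intracisternal A particle in placenta, had signals of 2918 to 5045 (median 3918) in the sorted arrays, against 439 to 529 (median 477) on gelatin, 462 to 597 (median 508) in EBs at day 4, 489.9 to 663 (median 588) at day 8 and 563 to 734 (median 636) at day 14. The sorted arrays did not overlap with any other. The differences were 2.99 ± 0.11, 2.90 ± 0.10, 2.71 ± 0.11 and 2.57 ± 0.11 (SE). Calml4, a calmodulin-like gene, had signals of 1214 to 1768 (median 1491) in the sorted arrays, against 260.1 to 342 (median 302) on gelatin, 244 to 394 (median 282) in EBs at day 4, 202 to 274 (median 232) at day 8 and 204 to 237 (median 214) at day 14, again with no overlap.

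Nupr1, a stress-induced chromatin-associated protein, had signals of 1019 to 1438 (median 1269) in the sorted arrays, against 428 to 874 (median 610.0) on gelatin, 324 to 755 (median 392) in EBs at day 4, 149 to 259.9 (median 196) at day 8 and 133 to 165 (median 141) at day 14. The medians of its other groups decreased from gelatin to day 14, and the difference was smallest against gelatin (1.01) and largest against day 14 (3.09). Cd1d1, which presents lipid antigens to natural killer T cells, had medians of 578 in sorted cells against 215 on gelatin and 174, 181 and 118 in EBs at days 4, 8 and 14. Gbp2b, an interferon-inducible guanylate-binding protein, had medians of 462 in sorted cells against 126 on gelatin and 123, 207 and 122 in EBs at days 4, 8 and 14. Its lowest sorted array was at 347 and its highest day 8 array at 338.

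The remaining higher members were Krt17, a keratin of epithelial cells (smallest difference 1.78), Serpinb6c, a serine protease inhibitor (1.78), the zinc finger gene Rex2 (1.03) and 1700097N02Rik (1.03). The Krt17 value is that of the member probe set 92861_i_at. The brighter Krt17 probe set 161496_r_at had differences of 0.48, 0.21, 0.15 and 0.32 against gelatin, day 4, day 8 and day 14. It passed limma only against gelatin and day 14. The also brighter 92862_f_at was higher in all 4 comparisons, with differences of 0.46 to 0.58. For Rex2 the sorted arrays (lowest 248) overlapped those at day 4 (highest 352) and day 8 (highest 266). The unnamed probe sets 160420_r_at, 92665_f_at and 161123_i_at had smallest differences of 2.25, 1.29 and 1.02.

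**Figure D3:**
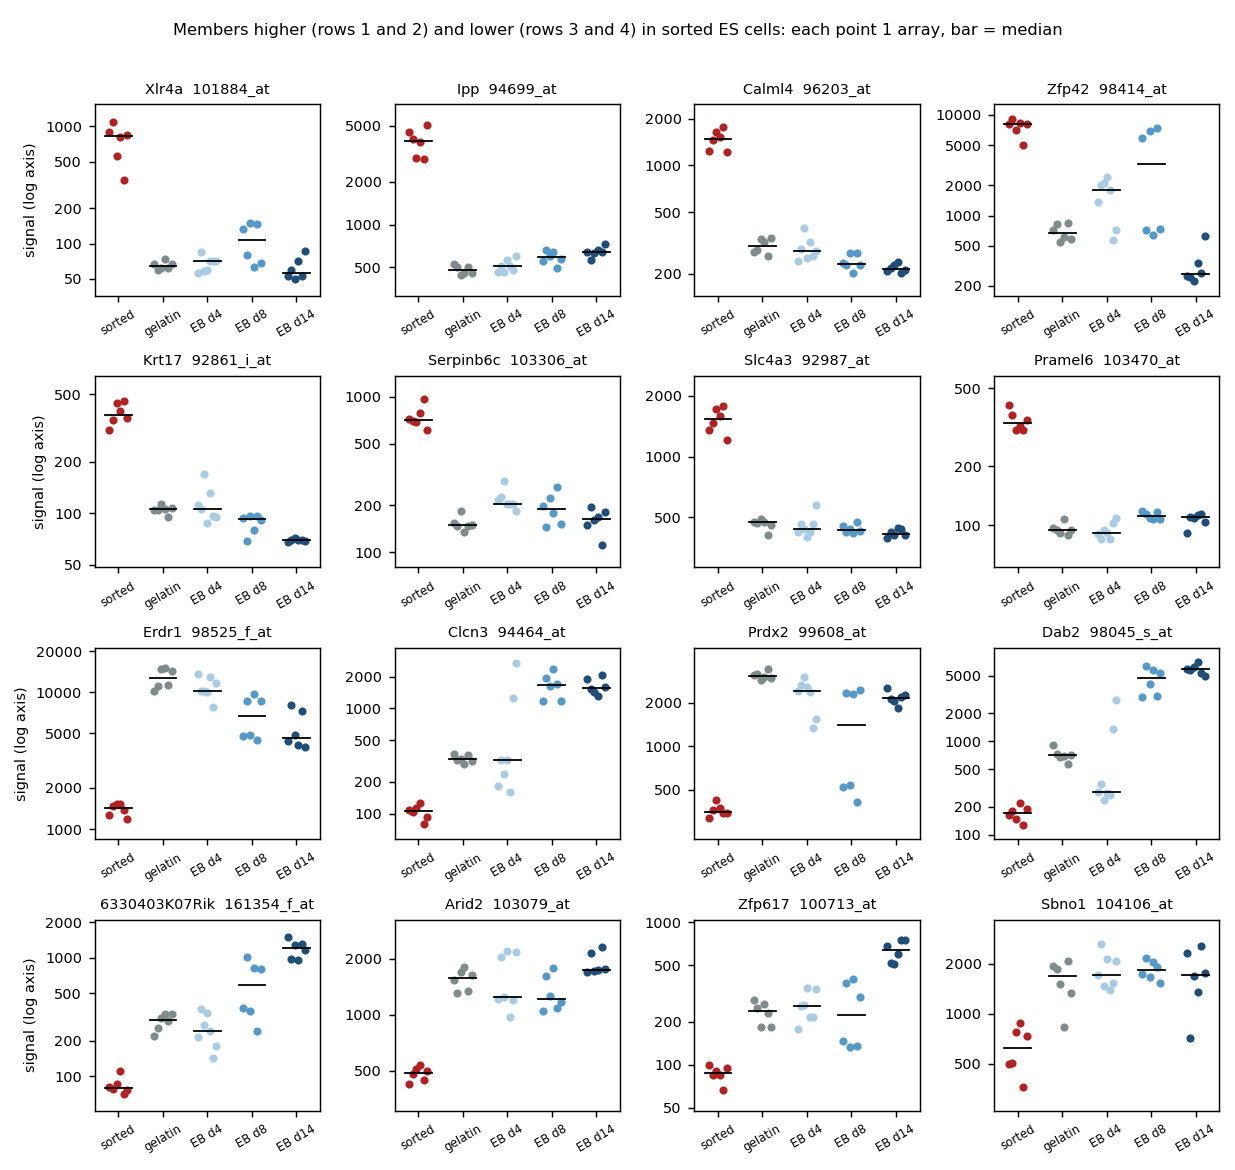
Signal of each array on a log axis for the 8 higher (rows 1 and 2) and 8 lower (rows 3 and 4) probe sets with a single symbol and the largest smallest-difference, in sorted ES cells, on gelatin and in EBs at days 4, 8 and 14 (points are arrays, bars are medians). Sorted arrays stand apart in each panel except Zfp42, Prdx2 and Sbno1, where they overlap other arrays.

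Among the 34 lower members, several are cell surface proteins and regulators of development. Dab2, an endocytic adaptor of extra-embryonic endoderm, had signals of 126 to 221 (median 172) in the sorted arrays, against 575 to 925 (median 708) on gelatin, 235 to 2798 (median 288) in EBs at day 4, 3004 to 6363 (median 4787) at day 8 and 5017 to 7137 (median 5862) at day 14 with the member probe set 98045_s_at. The EB day 8 and day 14 arrays were far above all sorted arrays, and the smallest difference (-1.54) was against day 4. Its other probe sets, 104633_at and 98044_at, did not pass against gelatin (-0.50 and -0.19) or day 4 (-0.15 and -0.02), while 104633_at was lower against day 8 (-2.60) and day 14 (-3.72) and 98044_at against day 14 alone (-0.79). The part of cell composition in this difference was not tested. The summed endoderm markers were 3622 to 4042 in sorted arrays, against 3601 to 4472 on gelatin, 3470 to 7698 at day 4, 15530 to 29250 at day 8 and 28850 to 36320 at day 14.

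Sox11, a SoxC transcription factor of neural progenitors, had signals of 498 to 694 (median 625) in the sorted arrays, against 1942 to 3405 (median 2338) on gelatin, 958 to 2196 (median 1456) in EBs at day 4, 923 to 2546 (median 1681) at day 8 and 4537 to 6191 (median 5149) at day 14. No sorted array overlapped with any other. Cdh2, N-cadherin, had medians of 273 in sorted cells against 1731 on gelatin and 719, 478 and 2090 in EBs at days 4, 8 and 14, and its sorted arrays (highest 321) overlapped those of day 4 (lowest 188). Pdpn, podoplanin, had signals of 403 to 531 (median 434) in the sorted arrays, against 1955 to 3110 (median 2534) on gelatin, 776 to 1305 (median 1011) in EBs at day 4, 757 to 1578 (median 1133) at day 8 and 1386 to 2399 (median 1737) at day 14.

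Cd24a, a surface glycoprotein of progenitor cells, had medians of 1798 in sorted cells against 5682 on gelatin and 4213, 7970 and 12140 in EBs at days 4, 8 and 14, and Efnb2, the ligand ephrin-B2, of 618 in sorted cells against 2226 on gelatin and 1261, 1378 and 2511 in EBs at days 4, 8 and 14. Numb, which antagonises Notch, had medians of 237 in sorted cells against 689 on gelatin and 471, 549 and 790.4 in EBs at days 4, 8 and 14, and its smallest difference was -1.05. Cited2, a transcriptional coactivator, had medians of 683 in sorted cells against 2288 on gelatin and 1353, 1756 and 3343 in EBs at days 4, 8 and 14, with 1 or more day 4 arrays inside the sorted range. Mest, an imprinted hydrolase gene, had medians of 765 in sorted cells against 1897 on gelatin and 1829, 3593 and 5386 in EBs at days 4, 8 and 14. These 5 genes had their lowest median in sorted cells and their highest at day 14, and the sorted arrays of Cited2 and Mest overlapped others.

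Igf2bp1, an RNA-binding protein of embryonic tissue, had signals of 1085 to 2380 (median 1649) in the sorted arrays, against 4676 to 8356 (median 6237) on gelatin, 2308 to 5322 (median 3806) in EBs at day 4, 3021 to 4826 (median 3797) at day 8 and 4810 to 6602 (median 5482) at day 14. Other members that act on RNA, translation or chromatin were Ro60, an RNA-binding autoantigen, Rbm39, a splicing factor, Arid2, a subunit of the PBAF chromatin remodelling complex, and Eif2s3y. Arid2 had signals of 428 to 535 (median 490.3) in the sorted arrays, against 1308 to 1801 (median 1578) on gelatin, 970.1 to 2211 (median 1249) in EBs at day 4, 1050 to 1788 (median 1221) at day 8 and 1689 to 2315 (median 1746) at day 14, and its sorted arrays were below every other array. Rbm39 was the lower member nearest the limit (-1.01), with medians of 210.4 in sorted cells against 422 on gelatin and 391, 533 and 733 in EBs at days 4, 8 and 14.

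Eif2s3y, the Y-linked copy of the gamma subunit of initiation factor eIF2, had signals of 82.7 to 159 (median 138) in the sorted arrays, against 392 to 845 (median 489.9) on gelatin, 157 to 595 (median 393) in EBs at day 4, 358 to 2608 (median 1507) at day 8 and 251 to 382 (median 332) at day 14. Its probe set is of the _f_at type, which can detect related transcripts, and its sorted and day 4 arrays overlapped. Erdr1, measured by the _f_at probe set 98525_f_at, had signals of 1183 to 1528 (median 1424) in the sorted arrays, against 10130 to 15070 (median 12750) on gelatin, 7834 to 13540 (median 10280) in EBs at day 4, 4488 to 9643 (median 6708) at day 8 and 3956 to 8082 (median 4624) at day 14. In this probe set no sorted array exceeded 1528 and no other array was below 3956. The other Erdr1 probe set, 98526_r_at, measured 1546 to 1827 (median 1595) in the sorted arrays and 1608 to 1767 (median 1649) on gelatin, and did not pass against gelatin (-0.04, adjusted p = 0.851), while it was lower against day 4 (-0.52), day 8 (-0.47) and day 14 (-1.39). The probe set with no symbol, 96215_f_at, had the largest smallest-difference among the lower members (-2.49), with signals of 645 to 890.0 (median 819) in the sorted arrays, against 7867 to 12520 (median 10150) on gelatin, 5056 to 9502 (median 7962) in EBs at day 4, 3038 to 7771 (median 4425) at day 8 and 4197 to 7900 (median 4870) at day 14.

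Further lower members are transport and signalling proteins. Clcn3, an endosomal chloride-proton exchanger, had signals of 80.2 to 125 (median 106) in the sorted arrays, against 294 to 370.4 (median 330.0) on gelatin, 162 to 2694 (median 323) in EBs at day 4, 1173 to 2353 (median 1682) at day 8 and 1301 to 2069 (median 1573) at day 14. Itpr2, an inositol trisphosphate receptor, had medians of 191 in sorted cells against 949 on gelatin and 652, 508 and 939 in EBs at days 4, 8 and 14. Wnk1, a kinase that regulates ion transport, had medians of 104 in sorted cells against 712 on gelatin and 279, 215 and 814 in EBs at days 4, 8 and 14, and the sorted arrays (highest 136) overlapped day 4 arrays (lowest 108). In its member probe set, each of these was lowest in sorted cells.

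Prdx2, a peroxiredoxin that reduces hydrogen peroxide, had signals of 321 to 429.8 (median 355) in the sorted arrays, against 2873 to 3401 (median 3045) on gelatin, 1342 to 3022 (median 2407) in EBs at day 4, 413 to 2426 (median 1410) at day 8 and 1825 to 2533 (median 2150) at day 14. These signals are those of the member probe set 99608_at. As with Zfp42, its day 8 arrays were split. Arrays 1, 3 and 5 had 525, 542 and 413, near the sorted level. Arrays 2, 4 and 6 had 2315, 2279 and 2426, near the day 14 level. The brighter Prdx2 probe set 100331_g_at was lower in all 4 comparisons by smaller amounts. Its differences were -0.48, -0.37, -0.50 and -0.15 against gelatin, day 4, day 8 and day 14. It had signals of 6974 to 8215 in the sorted arrays and 10210 to 11440 at day 8. Snx5, a sorting nexin, had medians of 739 in sorted cells against 2270 on gelatin and 2298, 1619 and 2564 in EBs at days 4, 8 and 14. Slc7a6, an amino acid transporter subunit, had medians of 206 in sorted cells against 655 on gelatin and 672, 415 and 419.8 in EBs at days 4, 8 and 14. Their smallest differences were -1.07 and -1.06.

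St6gal1, a sialyltransferase, had medians of 361 in sorted cells against 997 on gelatin and 1055, 816 and 1149 in EBs at days 4, 8 and 14. Cdo1, cysteine dioxygenase, had medians of 152 in sorted cells against 408 on gelatin and 368, 407 and 491 in EBs at days 4, 8 and 14, with no overlap. Nsmaf, an adaptor of the TNF receptor, had medians of 541 in sorted cells against 1260 on gelatin and 1189, 1140 and 1247 in EBs at days 4, 8 and 14, and its other 4 groups differed by 0.10 at most on the log2 scale. The other lower members were Zfp617 (smallest difference -1.36), a zinc finger gene, Wdr26 (-1.27), a subunit of an E3 ubiquitin ligase complex, Sbno1 (-1.35), 6330403K07Rik (-1.53), Stx3 (-1.04), a syntaxin of membrane fusion, Pls3 (-1.04), an actin-bundling plastin, and Ro60 (-1.08). The unnamed probe sets 93883_at, 102788_s_at and 102348_at had smallest differences of -1.30, -1.22 and -1.15.

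The nearest genes on either side of the limit were close in value. Taking the brightest probe set of each gene, those just inside were Pramel7 (1.00) and Pck2 (1.01) on the higher side and Pls3 (-1.04) and Stx3 (-1.04) on the lower side. Just outside were Trib3 (0.97) and Trap1a (0.96) on the higher side and Cdkn1c (-0.998) and Son (-0.96) on the lower side. Leaving out each array in turn kept 44 of the 59 members apart, 18 of the 25 higher and 26 of the 34 lower. The members that were lost in at least 1 round had smallest differences of 1.08 or less in size, among them Rex2 (0.91 to 1.14 over rounds), Nupr1 (0.91 to 1.11) and Pls3 (-0.77 to -1.16).

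The sorted arrays were not evenly spread among themselves. Array 5 was the lowest of the 6 in 15 of the 25 higher members, and array 4 was the highest of the 6 in 16 of the 34 lower members. The mean log2 signal of the higher members was 9.70 to 10.02 over the sorted arrays, against 7.81 to 7.91 on gelatin, 7.84 to 8.17 at day 4, 7.81 to 8.61 at day 8 and 7.59 to 7.90 at day 14. That of the lower members was 8.27 to 8.80 over the sorted arrays, against 10.4 to 10.6, 9.65 to 10.4, 9.90 to 10.9 and 10.8 to 11.1 in the same groups.

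Whether the 4 other groups differed from each other was asked separately with limma's F test, which contrasts those groups only. The test passed for 49 of the 59 members, 20 of the 25 higher and 29 of the 34 lower, against 64.6% of all 12422 probe sets. The 2-fold rule used the means of the same groups, and some of the 12422 probe sets lay under the floor in every group. These shares therefore describe the members and support no conclusion about them. The members that did not pass were Slc4a3, both probe sets of Pck2, Cd1d1 and Pramel7 among the higher, and Arid2, Sbno1, St6gal1, Nsmaf and Rbm39 among the lower. For these, no difference among the other groups was detected, which does not show that they are alike. Adjusted p was 0.356 for Slc4a3, 0.565 and 0.538 for Pck2, and 0.802 for Nsmaf.

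Other probe sets of the same genes were compared as different probes on the same arrays. Of the 50 genes, 21 had at least 1 other probe set, 35 in all, and 29 had none. Of the 35, 17 had the member's sign in all 4 comparisons, 7 passed limma in the member's direction in all 4, 11 passed that way in none and 5 passed in the opposite direction in at least 1. The signal of 9 was below the 25th percentile. For Sox11, 93669_f_at had medians of 148 in sorted cells against 337 on gelatin and 252, 315 and 943 in EBs at days 4, 8 and 14 and was lower in sorted cells in all 4 comparisons.

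For several members another probe set of the gene gave smaller differences or the other sign. For Clcn3, 102786_at had medians of 2564 in sorted cells against 2705 on gelatin and 1997, 2689 and 4039 in EBs at days 4, 8 and 14, and it passed limma only against day 14 (-0.91, adjusted p = 7.5e-05). Its 94463_at was higher against gelatin (0.51, limma adjusted p = 0.0026) and lower against day 14 (-0.70). Its 94465_g_at was lower against day 4 (-1.21), day 8 (-3.04) and day 14 (-3.18) and did not pass against gelatin (-0.70). For Itpr2, 96420_at was higher against gelatin (0.24) and passed in no other comparison. Its 101442_f_at was lower against gelatin (-0.57), day 4 (-0.43) and day 14 (-0.54). Of the 3 other probe sets of Wdr26, 160130_at was lower in all 4 comparisons, with medians of 179.9 in sorted cells against 326 on gelatin and 413, 528 and 751 in EBs at days 4, 8 and 14. The brightest, 104611_at, had medians of 1150 in sorted cells against 1188 on gelatin and 1098, 1131 and 1367 in EBs at days 4, 8 and 14 and passed only against day 14 (-0.33), and 104612_g_at passed only against gelatin (-0.78) and day 14 (-0.80). Dab2, Erdr1, Pfkp, Prdx2 and Krt17 differed between probe sets as given above. For St6gal1, the brighter 94431_at had differences of -0.13, -0.36, -0.38 and -0.58 against gelatin, day 4, day 8 and day 14. It passed only against day 14. For Rbm39, the brighter 93267_at had -0.78, -0.47, 0.31 and -1.07 in that order and passed only against day 14. For Slc7a6, the brighter 100417_at was lower in all 4 comparisons, with differences of -0.24 to -0.39. For Wnk1, 94003_at had medians of 4000 in sorted cells against 5846 on gelatin and 3891, 4437 and 4614 in EBs at days 4, 8 and 14, with its largest difference against gelatin (-0.61). For Sbno1, 103678_at had medians of 3320 in sorted cells against 3979 on gelatin and 3391, 3636 and 3705 in EBs at days 4, 8 and 14. Its 161237_at was higher against gelatin (0.26) and passed in no other comparison. For Stx3, 100497_at was higher against day 8 (0.21) and passed in no other comparison. Its 100498_g_at was lower against day 4 (-0.46), day 8 (-0.53) and day 14 (-0.52) and did not pass against gelatin (0.13). The Stx3 member did not remain apart after quantile normalization or median centring. For Snx5, 93598_at had differences of -0.73 ± 0.12, -0.55 ± 0.12, 0.17 ± 0.12 and -0.08 ± 0.12, and for Numb, 161912_r_at had -0.07 ± 0.11, 0.06 ± 0.11, 0.09 ± 0.11 and -0.07 ± 0.11 (SE). For Lactb2, 97257_at was lower in sorted cells against gelatin (-0.27), day 4 (-0.30) and day 8 (-0.32) and did not pass against day 14 (0.14), with medians of 209 in sorted cells against 249.8 on gelatin and 254, 258 and 184 in EBs at days 4, 8 and 14.

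Tests of the whole table gave the setting for gene lists. Against gelatin, 2260 probe sets were higher (18.2%) and 2661 lower (21.4%) in sorted cells, and against EB day 4, 1696 were higher (13.7%) and 1379 lower (11.1%). Against day 8, 2473 were higher (19.9%) and 1896 lower (15.3%), and against day 14, 2980 were higher (24.0%) and 3086 lower (24.8%). The split depended on the scaling between arrays: of the called probe sets, 45.9% were higher against gelatin, and 60.2% or 62.6% after quantile normalization or median centring. Against day 14 these shares were 49.1%, 62.1% and 68.7%, and median centring moved the median of all probe sets there by 0.107 on the log2 scale. The 4 comparisons share the sorted arrays, and genes below are represented by 1 probe set each (8251 genes). The lists were chosen with earlier results of these data known, and some hold members that the 2-fold rule chose. Their counts and shares therefore describe the lists and test nothing.

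Of 25 measured genes of the naive state, 19 were higher and 2 lower in sorted cells against gelatin, 7 and 1 against day 4, 13 and 2 against day 8 and 19 and 1 against day 14. Of this list, 76%, 28%, 52% and 76% were higher in that order of comparisons, against 18.4%, 14.1%, 19.4% and 24.4% of all genes, and 8%, 4%, 8% and 4% lower, against 23.3%, 12.1%, 16.9% and 27% of all genes. The list's median difference was 0.58, 0.13, 0.52 and 0.76. Besides Zfp42 and Fbxo15, Tcl1, a coactivator of the kinase Akt, was among those higher in all comparisons, with signals of 525 to 706 (median 664) in the sorted arrays, against 195 to 235 (median 218) on gelatin, 261 to 405 (median 304) in EBs at day 4, 274 to 612 (median 394) at day 8 and 217 to 266 (median 225) at day 14 and differences of 1.57 ± 0.15, 1.01 ± 0.15, 0.65 ± 0.15 and 1.48 ± 0.15 (SE; limma adjusted p = 3.65e-09, 1.18e-05, 0.00146 and 7.12e-09). Tcl1 was singled out after its values were seen. Klf4, a factor downstream of LIF, had differences of 0.90 ± 0.32, 0.86 ± 0.31, 1.68 ± 0.32 and 1.64 ± 0.32 (adjusted p = 0.027, 0.0445, 0.00019 and 0.000127), while Dppa3 differed by -0.11 ± 0.25 against day 4 (adjusted p = 0.822).

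The core pluripotency list had genes on both sides against gelatin and day 4. Of 19 genes, 6 were higher and 5 lower against gelatin, 2 and 5 against day 4, 11 and 2 against day 8 and 16 and none against day 14. As shares, 31.6%, 10.5%, 57.9% and 84.2% were higher in that order of comparisons, against 18.4%, 14.1%, 19.4% and 24.4% of all genes, and 26.3%, 26.3%, 10.5% and 0% lower, against 23.3%, 12.1%, 16.9% and 27% of all genes. After quantile normalization 2 rather than 5 were lower against gelatin and 3 rather than 5 against day 4. Nanog, a homeodomain factor, had signals of 4363 to 7281 (median 6745) in the sorted arrays, against 1365 to 4351 (median 3301) on gelatin, 3969 to 6653 (median 5373) in EBs at day 4, 4571 to 8087 (median 5987) at day 8 and 1472 to 3937 (median 2198) at day 14. Its differences were 1.17 ± 0.23, 0.22 ± 0.23, 0.06 ± 0.23 and 1.46 ± 0.23 (SE; adjusted p = 0.000216, 0.52, 0.897 and 8.2e-06), so that the values at day 4 and day 8 did not separate from those of sorted cells. Sall4, Lefty1 and Phc1, singled out after their values were seen, were lower in sorted cells against gelatin and day 4 with the deposited scaling. With only 2 genes of the list lower against gelatin after quantile normalization, not all of these kept that call.

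Other pluripotency genes gave smaller or partial differences. Klf2 was higher against gelatin (0.89, adjusted p = 0.00023) and day 14 (1.45, adjusted p = 1.5e-07) and did not pass against day 4 (0.29) or day 8 (0.39). Sox2 was higher against gelatin (0.37), day 8 (0.62) and day 14 (0.35) and did not pass against day 4 (0.16). Tdgf1, a Nodal co-receptor, and Dppa4 passed against day 8 (both 1.16) and day 14 (2.23 and 2.94) and in neither of the other comparisons. Utf1 and Esrrb, 2 further pluripotency factors, passed against gelatin (0.34 and 0.20) and day 14 (0.72 and 0.37), and Foxd3 against day 8 (0.27) and day 14 (0.34). Klf5 differed by -0.37 against gelatin, which did not pass, and was higher against day 4 (0.52), day 8 (0.52) and day 14 (0.51). Socs3, a feedback inhibitor of LIF signalling, passed only against day 14 (0.44).

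Genes of growth factor signalling that passed limma 1 way in all 4 comparisons were named by that criterion. Of 25 FGF and MAPK genes, 12%, 12%, 16% and 16% were higher against gelatin, day 4, day 8 and day 14. Lower were 28%, 12%, 20% and 24%. Of 41 TGFb and BMP genes, 12.2%, 14.6%, 12.2% and 14.6% were higher and 36.6%, 19.5%, 22% and 41.5% lower. Of all genes, 18.4%, 14.1%, 19.4% and 24.4% were higher and 23.3%, 12.1%, 16.9% and 27% lower. Fgf4, the ligand that drives ES cells to leave the naive state, had signals of 5506 to 6438 (median 6209) in the sorted arrays, against 2418 to 2882 (median 2615) on gelatin, 3065 to 4844 (median 3888) in EBs at day 4, 1537 to 5339 (median 2866) at day 8 and 682 to 1513 (median 977) at day 14, with differences of 1.21 ± 0.23, 0.66 ± 0.22, 1.13 ± 0.23 and 2.64 ± 0.23 (SE). Dusp6, a phosphatase induced by ERK signalling, was lower in sorted cells, with medians of 1351 in sorted cells against 4415 on gelatin and 1929, 1897 and 4411 in EBs at days 4, 8 and 14 and differences of -1.80 ± 0.22, -0.74 ± 0.21, -0.90 ± 0.22 and -1.90 ± 0.22 (SE). Id2, a target of BMP signalling, had medians of 544 in sorted cells against 1825 on gelatin and 956, 3402 and 6738 in EBs at days 4, 8 and 14, and Smad1, which carries that signal, of 952 in sorted cells against 1352 on gelatin and 1313, 2536 and 3330 in EBs at days 4, 8 and 14. Both were lowest in sorted cells. Socs2, another inhibitor of cytokine signalling, had differences of -1.46 against gelatin, -1.28 against day 4, -0.63 against day 8 and -0.73 against day 14. Inhbb, a subunit of activin, was higher by 0.78 to 0.93 in the 4 comparisons. By the same criterion, Nras was lower (-0.70, -0.38, -0.57 and -0.91) and Ifitm3 higher (0.72, 0.50, 0.59 and 1.14). Of 27 LIF, JAK and STAT genes, 37%, 33.3%, 25.9% and 44.4% were higher in that order of comparisons and 29.6%, 3.7%, 18.5% and 18.5% lower.

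Among antioxidant enzymes named by the same criterion, Sod2, the mitochondrial superoxide dismutase, was higher, with signals of 3389 to 4134 (median 3751) in the sorted arrays, against 1386 to 1935 (median 1783) on gelatin, 1466 to 2566 (median 1981) in EBs at day 4, 1225 to 2094 (median 1569) at day 8 and 861 to 1208 (median 947) at day 14 and differences of 1.13 ± 0.12, 0.91 ± 0.12, 1.25 ± 0.12 and 1.92 ± 0.12 (SE). Cat, catalase, was lower, with differences of -0.85 ± 0.14, -0.68 ± 0.13, -0.50 ± 0.14 and -1.17 ± 0.14 (SE). Gpx2, named the same way, was higher, with differences of 0.73, 0.38, 0.64 and 0.70. Of the 37 genes on that list, 37.8%, 27%, 24.3% and 35.1% were higher against gelatin, day 4, day 8 and day 14. Lower were 37.8%, 24.3%, 16.2% and 18.9%. Of all genes, 18.4%, 14.1%, 19.4% and 24.4% were higher and 23.3%, 12.1%, 16.9% and 27% lower. Slc2a3, a glucose transporter, and Pkm, pyruvate kinase, were lower in sorted cells in all 4 comparisons, with differences of -0.91, -0.79, -1.54 and -1.58 for Slc2a3. Their list did not go 1 way. Of its 30 glycolysis and hypoxia genes, 40%, 20%, 3.33% and 6.67% were higher against gelatin, day 4, day 8 and day 14. Lower were 20%, 13.3%, 40% and 56.7%. The shares of all genes are those just given.

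The list of amino acid response genes had more genes higher than lower in sorted cells in each comparison. ATF4 is the transcription factor of that response, and its targets include aminoacyl-tRNA synthetases, amino acid transporters and serine synthesis enzymes. Of 34 genes, 20 were higher and 3 lower against gelatin, 19 and 1 against day 4, 23 and 2 against day 8 and 22 and 4 against day 14, with medians of 0.30, 0.30, 0.56 and 0.42, against 0.00, 0.02, 0.02 and 0.00 over all genes. Of the 34, 58.8%, 55.9%, 67.7% and 64.7% were higher in that order of comparisons, against 18.4%, 14.1%, 19.4% and 24.4% of all genes, and 8.82%, 2.94%, 5.88% and 11.8% lower, against 23.3%, 12.1%, 16.9% and 27% of all genes. Nupr1 was the gene of this list among the 59. Phgdh was under 59.6 on every array, and Slc7a11, which counts as higher in each comparison, was near it, with medians of 62.9 in sorted cells against 51.4 on gelatin and 49.7, 51.1 and 51.2 in EBs at days 4, 8 and 14 and differences of 0.10 to 0.11.

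The following 4 genes of the list were singled out after their values were seen. Atf4 had signals of 5347 to 7392 (median 7054) in the sorted arrays, against 2618 to 3449 (median 3014) on gelatin, 3573 to 4376 (median 4125) in EBs at day 4, 2757 to 4375 (median 3425) at day 8 and 3297 to 3629 (median 3420) at day 14 and differences of 1.18 ± 0.10, 0.75 ± 0.10, 0.97 ± 0.10 and 0.99 ± 0.10 (SE; limma adjusted p = 6.01e-10, 3.32e-06, 4.34e-08 and 1.04e-08). Asns, asparagine synthetase, had signals of 7612 to 10540 (median 10100) in the sorted arrays, against 4052 to 6603 (median 5322) on gelatin, 4433 to 6738 (median 5801) in EBs at day 4, 4811 to 6768 (median 5409) at day 8 and 4873 to 6983 (median 6096) at day 14 and differences of 0.89 ± 0.13, 0.73 ± 0.12, 0.78 ± 0.13 and 0.67 ± 0.13. Both genes were above every other array in all sorted arrays.

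Mthfd2, of mitochondrial one-carbon metabolism, had medians of 9499 in sorted cells against 5593 on gelatin and 5521, 3459 and 4572 in EBs at days 4, 8 and 14 and differences of 0.81 ± 0.10, 0.91 ± 0.10, 1.5 ± 0.10 and 1.06 ± 0.10. Psph, which completes serine synthesis, had medians of 5422 in sorted cells against 3093 on gelatin and 2916, 3611 and 3941 in EBs at days 4, 8 and 14 and differences of 0.84 ± 0.07, 0.93 ± 0.07, 0.62 ± 0.07 and 0.46 ± 0.07. Trib3, a pseudokinase induced by ATF4 that lay just outside the 2-fold limit, had signals of 1397 to 1985 (median 1711) in the sorted arrays, against 667 to 764 (median 683) on gelatin, 751 to 963 (median 888) in EBs at day 4, 658 to 809 (median 687) at day 8 and 646 to 701 (median 653) at day 14. Its sorted arrays did not overlap with any other. In the other direction, Atf3, a stress-induced factor, was lower in sorted cells against gelatin (-1.14, adjusted p = 5.2e-05) and day 14 (-0.51, adjusted p = 0.0395). Ddit3 (CHOP) was lower against gelatin (-0.47, adjusted p = 0.015) and day 4 (-0.62, adjusted p = 0.00277).

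**Figure D4:**
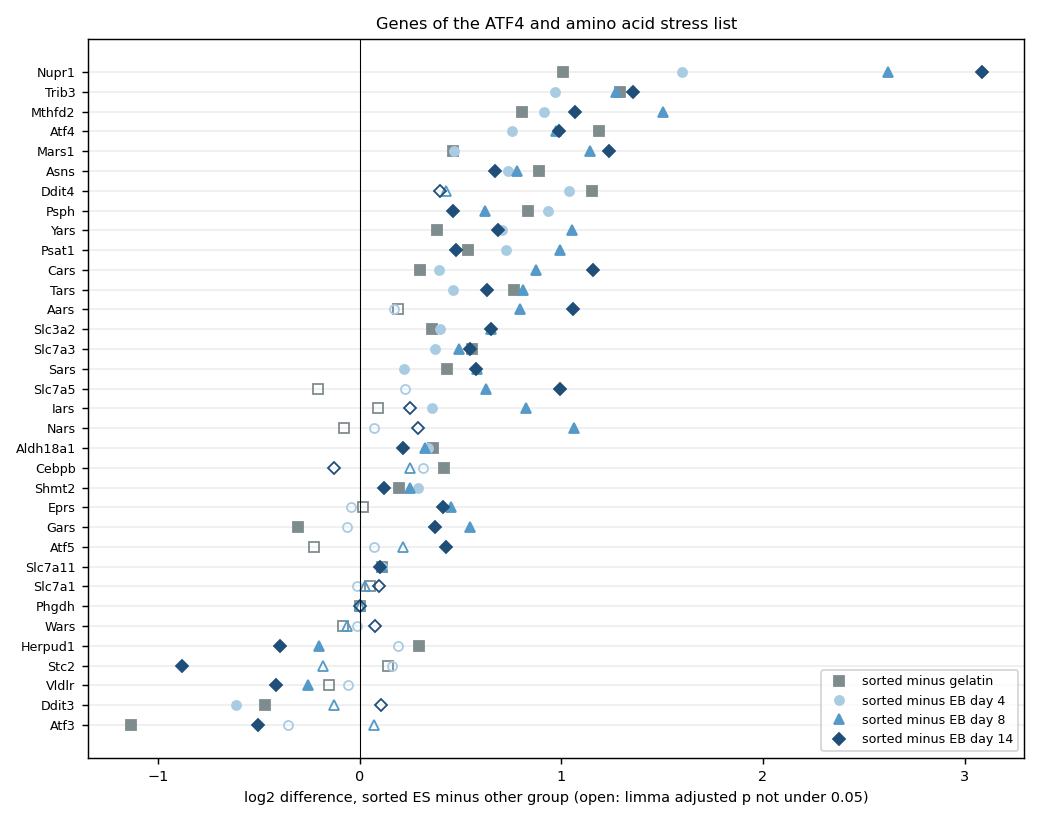
Log2 difference, sorted ES minus each other group (x axis), for the 34 measured genes of the ATF4 and amino acid stress list, ordered by their mean difference (filled symbols have a limma adjusted p under 0.05). Most genes lie to the right of 0, with Nupr1, Trib3 and Mthfd2 farthest, and Atf3 and Ddit3 lie to the left against gelatin.

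Of 26 p53 targets and apoptosis genes, 2 were higher and 18 lower against gelatin (median -0.58), none and 7 against day 4 (-0.10), 6 and 8 against day 8 (-0.10) and 7 and 11 against day 14 (-0.15). Of these 26, 7.69%, 0%, 23.1% and 26.9% were higher in that order of comparisons, against 18.4%, 14.1%, 19.4% and 24.4% of all genes, and 69.2%, 26.9%, 30.8% and 42.3% lower, against 23.3%, 12.1%, 16.9% and 27% of all genes. Cdkn1a, the cell cycle inhibitor p21, had signals of 1131 to 1494 (median 1301) in the sorted arrays, against 3132 to 5843 (median 4058) on gelatin, 1426 to 3832 (median 1938) in EBs at day 4, 4020 to 5061 (median 4433) at day 8 and 2499 to 3412 (median 2899) at day 14 and differences of -1.68 ± 0.19, -0.78 ± 0.18, -1.78 ± 0.19 and -1.17 ± 0.19 (SE; adjusted p = 4.77e-08, 0.00212, 3.56e-08 and 8.32e-06). Apaf1, which forms the apoptosome, had differences of -1.50 ± 0.17, -0.71 ± 0.17, -0.86 ± 0.17 and -1.57 ± 0.17 (adjusted p = 7.15e-08, 0.00226, 0.000275 and 1.97e-08). Plk2, a polo-like kinase induced by p53, had differences of -1.39 ± 0.09, -0.32 ± 0.09, -0.64 ± 0.09 and -0.83 ± 0.09 (adjusted p = 2.42e-12, 0.00907, 3.19e-06 and 2e-08). Gadd45a, also a stress gene, was higher in sorted cells against gelatin by 0.81 (adjusted p = 2.1e-05).

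Of 40 DNA replication genes, 16 were higher and 5 lower against gelatin, 9 and 7 against day 4, 17 and 2 against day 8 and 23 and 5 against day 14. Of these 40, 40%, 22.5%, 42.5% and 57.5% were higher in that order of comparisons, against 18.4%, 14.1%, 19.4% and 24.4% of all genes, and 12.5%, 17.5%, 5% and 12.5% lower, against 23.3%, 12.1%, 16.9% and 27% of all genes. Pola1, which encodes the polymerase that primes new strands, had differences of 1.26 ± 0.11, 0.82 ± 0.11, 1.27 ± 0.11 and 0.81 ± 0.11 (SE; adjusted p = 9.92e-10, 3.53e-06, 2.12e-09 and 1.13e-06). Of 21 imprinted genes, 2 were higher and 10 lower against gelatin, 3 and 7 against day 4, 2 and 12 against day 8 and 1 and 15 against day 14. Of these 21, 9.52%, 14.3%, 9.52% and 4.76% were higher in that order of comparisons, against 18.4%, 14.1%, 19.4% and 24.4% of all genes, and 47.6%, 33.3%, 57.1% and 71.4% lower, against 23.3%, 12.1%, 16.9% and 27% of all genes.

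Of 39 endoderm genes, which include Dab2, 4 were higher and 10 lower against gelatin, 1 and 4 against day 4, 1 and 26 against day 8 and 3 and 31 against day 14. Of these 39, 10.3%, 2.56%, 2.56% and 7.69% were higher in that order of comparisons, against 18.4%, 14.1%, 19.4% and 24.4% of all genes, and 25.6%, 10.3%, 66.7% and 79.5% lower, against 23.3%, 12.1%, 16.9% and 27% of all genes.

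A list of 22 germline and cancer-testis genes held 3 members by the 2-fold rule (Xlr4a, Calml4 and Ldhc), which are higher in sorted cells by choice. The list was used as drawn up. It does not hold Pdha2, and whether Calml4 is a germline gene was not examined. Of the 22, 15 were higher and none lower against gelatin, and 8 and none against day 4. Against day 8, 7 were higher and 5 lower, and against day 14, 10 and 3. Of these 22, 68.2%, 36.4%, 31.8% and 45.5% were higher in that order of comparisons, against 18.4%, 14.1%, 19.4% and 24.4% of all genes, and 0%, 0%, 22.7% and 13.6% lower, against 23.3%, 12.1%, 16.9% and 27% of all genes. Rhox5, an X-linked homeobox gene singled out after its values were seen, had signals of 10390 to 12480 (median 11840) in the sorted arrays, against 678 to 973 (median 881) on gelatin, 2092 to 6758 (median 3503) in EBs at day 4, 6594 to 10390 (median 8858) at day 8 and 2788 to 7628 (median 5031) at day 14. Its differences were 3.77 ± 0.24, 1.76 ± 0.23, 0.47 ± 0.24 and 1.23 ± 0.24 (SE; adjusted p = 1.55e-12, 2.92e-06, 0.133 and 0.000114), and the one against day 8 did not pass.

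Of 53 fibroblast and matrix genes, 7 were higher and 27 lower against gelatin (median -0.35), 18 and 2 against day 4 (0.21), 24 and 11 against day 8 (0.11) and 18 and 18 against day 14 (-0.01). Of these 53, 13.2%, 34%, 45.3% and 34% were higher in that order of comparisons, against 18.4%, 14.1%, 19.4% and 24.4% of all genes, and 50.9%, 3.77%, 20.8% and 34% lower, against 23.3%, 12.1%, 16.9% and 27% of all genes. The summed feeder fibroblast markers moved the same way against gelatin, as given with the marker check, and their part in the differences was not tested. Mgp, matrix Gla protein, a calcification inhibitor on that list, had medians of 813 in sorted cells against 340.0 on gelatin and 374, 222 and 133 in EBs at days 4, 8 and 14 and was higher in sorted cells in all 4 comparisons, with differences of 1.36 ± 0.21, 0.94 ± 0.20, 1.95 ± 0.21 and 2.66 ± 0.21 (SE; adjusted p = 5.38e-06, 0.000884, 3.61e-08 and 4.07e-11).

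**Figure D5:**
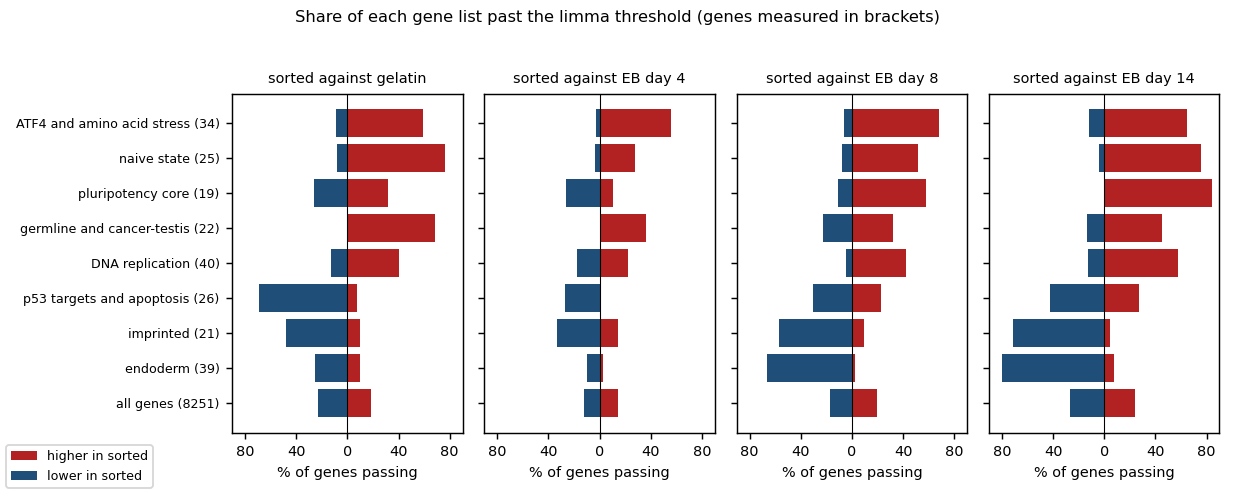
Percent of the measured genes of 8 lists and of all genes that passed limma at an adjusted p under 0.05, higher (red, to the right) or lower (blue, to the left) in sorted ES cells, against gelatin and EBs at days 4, 8 and 14. In the ATF4 list 55.9% to 67.7% of genes were higher across the panels, while the endoderm list turns lower at days 8 and 14.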

How the data were processed

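The deposited values are probe set intensities (dChip signal) of 31 Affymetrix MgU74Av2 arrays, which the authors made with dChip from RNA amplified in 2 rounds. The dChip version and model are not given in the sources used here, and the number of arrays limits precision. The 66 control probe sets among 12488 were not used, and 10833 of the others had 1 symbol in the platform annotation, 396 several and 1193 none. Signals under 59.6 (the 5th percentile) were raised to it and all were put on the log2 scale. A model of 5 groups was fitted with limma 3.58.1 (R 4.3.3; moderated variances with trend), with Benjamini-Hochberg adjustment over 12422 probe sets at 0.05. A test on simulated data preceded it. A gene was represented by its probe set of highest mean signal.

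A probe set was apart when all 4 log2 differences were at least 1 in size and of 1 sign. All 59 were accounted for. Named by rule were the 15 genes a direction with the largest smallest-difference, up to 4 apart genes of each list or, with none apart, up to 3 that passed 1 way in all 4 comparisons, the pluripotency genes given in the text, and the 2 nearest genes on either side of the limit each way. Other members are named to account for them, and Asns, Atf4, Mthfd2, Psph, Rhox5, Tcl1, Atf3, Ddit3, Gadd45a, Sall4, Lefty1, Phc1, Phgdh and Slc7a11 after their values were seen. The members and the 32 lists were chosen with earlier results of these data known. Replicate numbers give no pairing in the labels. Alternatives changed the scaling, floor, dim probe sets, fold limit, model and arrays.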

Additional observations from a re-analysis of the deposited data

Results flagged for a closer look

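In 425 groups of 6 or 7 arrays, over the members, the genes at the 2-fold limit and the other genes examined singly, 1 array stood far from the others of its group in 23. Chance alone flags about 1 in 20 groups, or 21.2 here. Values are dChip signal.

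Among sorted arrays, Klf2 was highest in array 5 (4391) and Atf4 lowest in array 5 (5347), Psph was highest in array 4 (5891) and 6330403K07Rik highest in array 4 (111.4), Tcl1 was lowest in array 6 (525.0), 96215_f_at lowest in array 6 (644.7) and Rhox5 lowest in array 3 (10390). On gelatin, Serpinb6c stood high in array 3 (185.3), Ldhc in array 5 (93.08) and Trib3 in array 4 (764.2), and Trap1a stood low in array 1 (2637).

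In EBs at day 4, Serpinb6c stood high in array 3 (285.1), Slc4a3 and Clcn3 in array 7 (574.9 and 2694), and Nupr1, 93883_at and Mgp in array 2 (755.0, 7648 and 949.5). At day 8, Trib3 stood high in array 6 (809.0). At day 14, array 6 held 4 of the flags, with high values of Zfp42 (625.9), Ldhc (112.5), 93883_at (14620) and Dppa3 (381.8), and array 5 held 1, for Mgp (164.2).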

How the results depend on the processing

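The 25 higher and 34 lower probe sets became 74 and 153 at a limit of 1.5-fold and 10 and 3 at 3-fold. The higher ones became 16 with the floor at the 25th percentile and 12 with the dimmest 40% of probe sets left out, an alternative that tests fewer probe sets. Leaving out 1 array at a time gave 20 to 32 higher and 28 to 37 lower. Group means on the linear scale gave 21 and 38. Alternatives chosen after seeing the data left out 3 gelatin arrays (25 and 35, with 1584 and 2221 calls against gelatin) or the day 8 group (32 and 51). Of the 59, 57 remained apart after quantile normalization and 57 after median centring.

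Calls of higher probe sets against gelatin became 3796 with median centring and 1372 without dim probe sets. Those against day 14 became 5110 and 1842, and without dim probe sets those against day 4 became 1030 and against day 8 1445. The cause of the shift under median centring was not tested. Leaving out 1 array at a time gave 1939 to 2368 higher and 2413 to 2770 lower against gelatin, 1333 to 1866 and 1120 to 1609 against day 4, 2097 to 2586 and 1696 to 1972 against day 8, and 2734 to 3058 and 2817 to 3188 against day 14. The test among the other groups then called 7686 to 8344 probe sets and 45 to 51 members.

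With the replicate block, 2292 were higher and 2749 lower against gelatin, 1742 and 1389 against day 4, 2529 and 1957 against day 8 and 3007 and 3107 against day 14. Deviations of same-numbered arrays from their group means correlated at -0.351 to 0.494 over 60 pairs. Pairs with different numbers were not compared, so this range cannot show whether the numbers pair the arrays. For genes named singly, 32 results lost their call under an alternative and 78 when 1 array was left out, among them Klf4 against day 4, and none changed direction. Comparisons that did not pass were not varied. Of the gene list counts, 76 of 512 moved by over 1.5 times under rescaling.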
